A study of Homo sapiens with 18 samples.

Results

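The 9 control arrays of this series allow a comparison between arrays labelled SKBR3, a HER2-positive breast cancer line, and arrays labelled with either of a pair of triple-negative lines, MDA-MB-231 and MDA-MB-468. Some marker genes, described with the ERBB2 amplicon and the known deletions, go against these labels, so line names below are those of the labels. The control arrays were picked out by their labels, as the arrays titled with a control antisense oligonucleotide (ASO). They make up 9 of 18 arrays, 3 per line. The comparison itself was chosen with earlier results of these data known. The other 9 carried an anti-lncRNA ASO, which targeted LINC01269 in SKBR3 and AL078604.2 in both triple-negative lines. Every culture, controls included, had received a GapmeR, an ASO that directs cleavage of its target RNA, at 15 nM for 48 h with the transfection reagent TransIT-BrCa. RNA was measured on the Affymetrix Human Gene 2.0 ST array. The study's own question was what each anti-lncRNA ASO does, and the line comparison below was not stated as an aim. A HER2-positive group of 1 line against a triple-negative group of 2 lines describes these lines, not the tumour types. The labels do not say that replicates were separate cultures, so p-values measure the spread between arrays, which may be technical.

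HER2, the product of ERBB2, is a receptor tyrosine kinase whose gene is amplified together with its neighbours in HER2-positive tumours, and SKBR3 is a standard model of that state. Triple-negative tumours lack HER2 overexpression and the oestrogen and progesterone receptors, and many of them carry basal keratins. Of the triple-negative lines, MDA-MB-468 is classed as basal-like, with amplified EGFR and loss of RB1 and SMAD4, and MDA-MB-231 is classed as mesenchymal-like.

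The features with some of the largest differences between the lines belonged to microRNA genes, so their mature sequences are shown first. They are RefSeq sequences (GRCh38.p14), written 5′ to 3′, with the seed, bases 2 to 8, in capitals. MIR130B and MIR185 both lie on the forward strand of chromosome 22, and MIR199A1 lies on the reverse strand of chromosome 19. Both arms of each hairpin are given, since an array feature for a microRNA gene does not tell the arms apart and may also pick up a longer transcript through the locus.
miR-130b-3p (chr22:21653354-21653375): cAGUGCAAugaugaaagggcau
miR-130b-5p (chr22:21653316-21653336): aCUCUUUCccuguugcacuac
miR-185-5p (chr22:20033153-20033174): uGGAGAGAaaggcaguuccuga
miR-185-3p (chr22:20033188-20033209): aGGGGCUGgcuuuccucugguc
miR-199a-3p (chr19:10817429-10817450): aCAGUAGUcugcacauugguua
miR-199a-5p (chr19:10817469-10817491): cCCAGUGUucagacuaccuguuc
No pair of these arms shares a seed. Of the microRNAs that share the miR-130b-3p seed, MIR3666 had a tested feature, with a difference of -0.04 log2 that did not pass (limma adjusted p = 0.837).

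On a common quantile scale, Pearson correlations between arrays over all features, which mainly reflect the spread of levels between features, ran from 0.985 to 0.987 within the line labelled SKBR3, from 0.990 to 0.992 within MDA-MB-231 and from 0.990 to 0.991 within MDA-MB-468. They ran from 0.974 to 0.978 between SKBR3 and MDA-MB-231, from 0.972 to 0.977 between SKBR3 and MDA-MB-468, and from 0.980 to 0.984 between the triple-negative lines. The deposited array medians differed by line (4.56 to 4.60 in the SKBR3 controls, 5.41 in MDA-MB-231, 5.21 to 5.22 in MDA-MB-468). The line, its separate scaling and its experiment cannot be told apart, so directions refer to the labels of the arrays.

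A feature, one transcript cluster of the array, was called where limma's moderated test passed a Benjamini-Hochberg adjusted p of 0.05. The contrast was the SKBR3 mean minus the mean of both triple-negative line means, in log2. Of 28966 features tested, 11660 (40.3%) were called, 5684 (19.6%) higher and 5976 (20.6%) lower in the arrays labelled SKBR3. Most of these differences were small, with a median size of 0.39 log2, or 1.31-fold, and 78.7% of the calls were under 1.5-fold. Calls of at least 2-fold numbered 435 (1.5%), of which 199 (0.687%) were higher and 236 (0.815%) lower. Among 10945 named genes, 4797 (43.8%) were called, 2154 (19.7%) higher and 2643 (24.1%) lower, and 103 (0.941%) were also at least 2-fold apart, 31 (0.283%) of them higher and 72 (0.658%) lower. The 3 SKBR3 arrays lay beyond all 6 others for 27.8% of the features tested and 30.9% of the named genes. With each triple-negative line set against SKBR3 on its own, 5873 features (20.3%) were called in both comparisons with the same sign. Both comparisons use the same SKBR3 arrays. The triple-negative lines differed from each other at 9119 features (31.5%), 369 (1.27%) of them at least 2-fold, and among named genes these figures were 37.7% and 0.859%.

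MIR130B, a microRNA gene, stood furthest above the other lines. Its levels in the 3 arrays labelled SKBR3 were 10.57, 10.56 and 10.54 log2, against 6.69, 7.19 and 7.07 in MDA-MB-231 and 6.87, 6.71 and 6.92 in MDA-MB-468. The groups did not overlap, and the triple-negative lines were alike. The difference was 3.65 ± 0.0969 log2 (SE, 3 arrays per line), or 12.6-fold, with a limma adjusted p of 1.48e-08. Among its neighbours in gene order, SDF2L1, a chaperone cofactor of the endoplasmic reticulum, was also higher by 1.26 ± 0.0631 (limma adjusted p = 8.98e-07), while PPIL2 on the other side was higher by 0.25.

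MIR185 read 9.90, 9.84 and 9.97 in the arrays labelled SKBR3, 7.66, 7.79 and 7.60 in MDA-MB-231 and 7.50, 7.52 and 7.59 in MDA-MB-468. Again the SKBR3 arrays stood apart and the others lay together. The difference was 2.29 ± 0.0563 (limma adjusted p = 1.12e-08). The genes before and after it in order of gene starts, TANGO2 (-0.13) and DGCR8 (0.08), did not pass. Whether either overlaps MIR185 was not examined. MIR199A1 went the other way, with 3.16, 2.78 and 3.17 in the arrays labelled SKBR3 and 5.32 to 5.78 in all 6 others, a difference of -2.48 ± 0.127 (limma adjusted p = 9.89e-07). Its SKBR3 levels lie at the 15.3 percentile of all features, low in the array's range, and it passed the filter on low values through the triple-negative lines. DNM2, 2 places before MIR199A1 in order of gene starts, was slightly higher (0.22). MIR4748, which comes between them in that order, did not pass (-0.13). Overlap with MIR199A1 was not examined either. Over all 401 microRNA genes tested, 54 were higher and 63 lower, 29.2% in all, below the 43.8% of named genes, with a median of -0.03. MIR1539 (1.29) and MIR4653 (1.06) were the other microRNA genes higher by at least 2-fold, and MIR766 (-1.03) and MIR4451 (-1.15) the others lower. These 4 were chosen after their values were seen.

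Other leading genes higher in the arrays labelled SKBR3 covered secreted proteins, lipid uptake and non-coding RNA. FGG, which encodes the gamma chain of the clotting protein fibrinogen, read 8.46, 8.28 and 8.27 in the arrays labelled SKBR3. It read 6.78, 6.90 and 6.77 in MDA-MB-231 and 5.55, 5.87 and 5.46 in MDA-MB-468. All 3 lines were separate, with SKBR3 highest and MDA-MB-468 lowest. The difference was 2.11 ± 0.0936 (limma adjusted p = 4.66e-07). Its neighbour FGA, for the fibrinogen alpha chain, was higher by 1.33 ± 0.139 (limma adjusted p = 5.62e-05), whereas PLRG1 beyond it was lower by 0.57 log2 (-0.57). CD36, a fatty acid transporter and scavenger receptor, was higher by 1.78, with SKBR3 arrays at 6.59 to 6.79 and the others at 4.65 to 5.07. Also higher were the asparaginase-like gene ASRGL1 (1.76), EDIL3, a secreted integrin ligand (1.49), CLCA2, a chloride channel regulator (1.40), and NOSTRIN, which binds nitric oxide synthase (1.36). So were ABHD11, a mitochondrial hydrolase (1.41), and TCEAL8 (1.44). The long non-coding RNAs LINC02864 (2.87) and LINC01192 (1.71) completed the non-coding members. Both passed the filter on low values through the SKBR3 arrays only. In MDA-MB-231 and MDA-MB-468 LINC02864 lay at the 34.5 and 24.1 percentiles of all features and LINC01192 at 25.3 and 16.2. CD36 (48.2 and 44.8), EDIL3 (39.6 and 25.3) and this ASRGL1 feature (48.6 and 42.5) also passed through the SKBR3 arrays only. Of the 30 leading genes in both directions, 16 were above the median of all features in all 3 lines.

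FGG and FGA stood high together and are neighbours, so the 250 bases before each start are shown (RefSeq, GRCh38.p14, reverse strand). The capitals mark CTGGGAA, a motif known from interleukin 6 response elements of acute-phase genes, searched on both strands.
FGG (chr4:154612657-154612906): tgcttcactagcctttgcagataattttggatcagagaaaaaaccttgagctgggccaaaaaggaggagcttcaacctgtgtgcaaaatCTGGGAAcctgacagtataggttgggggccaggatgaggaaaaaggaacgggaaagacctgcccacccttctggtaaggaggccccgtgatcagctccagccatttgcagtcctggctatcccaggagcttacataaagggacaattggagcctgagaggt
FGA (chr4:154590743-154590992): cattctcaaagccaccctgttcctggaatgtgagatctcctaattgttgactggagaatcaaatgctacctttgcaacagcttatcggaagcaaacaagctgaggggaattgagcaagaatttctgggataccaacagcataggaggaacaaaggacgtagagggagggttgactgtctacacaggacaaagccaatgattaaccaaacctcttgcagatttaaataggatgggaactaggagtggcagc
The FGG window held 1 match, whose first base is 161 bases before the start, and the FGA window held 0. Of 35116 promoter windows of that length, 3214 (9.15%) held the motif, so a match is a description of the letters.

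SERF2, a small protein that promotes protein aggregation, and the ribosomal protein genes RPL41 and RPL39 were also among the leading higher genes, but their features disagreed. One SERF2 feature read 11.7, 11.1 and 11.2 in the arrays labelled SKBR3 and 7.77 to 7.94 in all others, a difference of 3.49 ± 0.117 (limma adjusted p = 7.99e-08). The other SERF2 feature differed by -0.09, which did not pass. RPL41 had 5 tested features with differences from -0.06 to 2.07, RPL39 had features at 0.40 and 1.93, and ASRGL1 at 0.29, 0.70 and 1.76. The 3 features of LINC01192 ran from 1.11 to 1.76. Across all genes with more than 1 tested feature, 28 of 490 had calls in both directions and 202 had some features called and some not.

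The leading lower genes were led by MUCL1, a small secreted mucin of breast epithelium. It read 5.02, 5.02 and 4.80 in the arrays labelled SKBR3, 8.94, 9.23 and 9.14 in MDA-MB-231 and 6.37, 6.52 and 6.27 in MDA-MB-468. The 3 lines did not overlap, and the gap was far wider to MDA-MB-231 (-4.16) than to MDA-MB-468 (-1.44). The contrast was -2.80 ± 0.0906 (limma adjusted p = 6.88e-08). NPY1R, a receptor for neuropeptide Y, read 3.71 to 3.88 in the arrays labelled SKBR3 and 5.81 to 6.29 in the 6 others, a difference of -2.26. Those SKBR3 levels lie in the lower part of the array's range, at the 26.4 percentile of all features.

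Genes better known from blood cells were among them. BIN2, a membrane-bending protein of leukocytes, read 6.38, 6.21 and 6.25 in the arrays labelled SKBR3, 8.95, 8.87 and 8.73 in MDA-MB-231 and 7.94, 7.73 and 7.84 in MDA-MB-468 (difference -2.07). LCP1, an actin-bundling protein of leukocytes that carcinoma lines can also express, differed by -1.96 (SKBR3 arrays 5.41 to 5.51). For both genes MDA-MB-231 stood above MDA-MB-468 and neither line overlapped SKBR3. Of 7 leukocyte markers, 3 had a named feature and 1, CD68, was tested. CD68 differed by 0.06 and did not pass (limma adjusted p = 0.569). The part of blood cells in the BIN2 and LCP1 values was not tested.

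The remaining lower genes had differences between -1.39 and -1.76. They were RGCC, a cell cycle regulator (-1.76), the pseudogene FMO6P (-1.61), CCN3, a secreted matricellular protein (-1.56), and CRISP2, a cysteine-rich secretory protein (-1.51). CTSO, a lysosomal cysteine protease (-1.48), the lipocalin OBP2B (-1.45), TCEAL5 (-1.43), the protocadherin PCDH9 (-1.42) and NDFIP1, an adaptor of NEDD4 ubiquitin ligases (-1.41), followed. The antisense RNA ST3GAL6-AS1 (-1.39) came last. Of the lower genes, MUCL1, MIR199A1, NPY1R, CCN3, CRISP2, TCEAL5 and PCDH9 passed the filter on low values through the triple-negative lines only. ST3GAL6-AS1 passed it through MDA-MB-231 only. TCEAL5 and TCEAL8 are adjacent relatives on chromosome X that differed in opposite directions, and sequence shared between relatives can make such values uncertain. The triple-negative lines were not called apart for 3 of the 15 lower genes (MIR199A1, RGCC and NDFIP1) and 5 of the 15 higher ones (MIR130B, SERF2, MIR185, CD36 and ABHD11). They were called apart for the rest of the 30, a larger share than the 37.7% of all named genes. All 30 were called against each triple-negative line with the same sign, as were 21.9% of named genes. The same sign is forced here, since the selection required the SKBR3 arrays to lie beyond all the others. The selection also took the largest differences, so these calls are not a separate test of the genes.

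**Figure D1:**
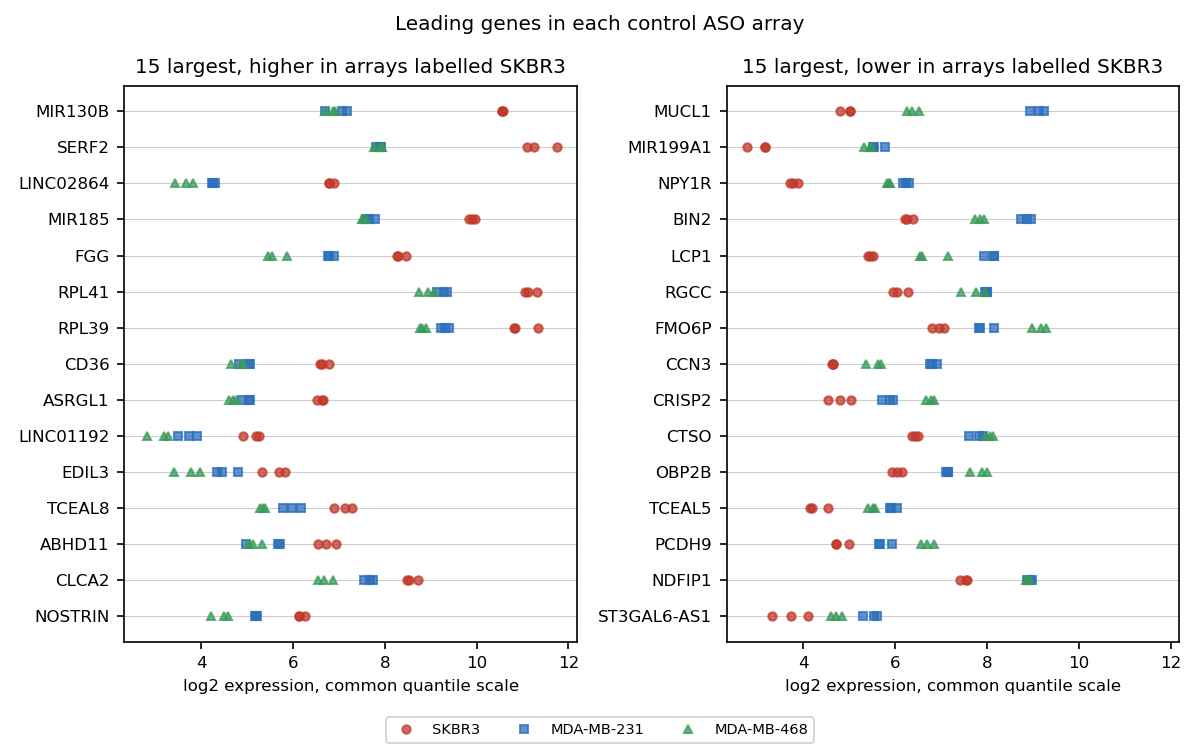
Level of the 15 named genes with the largest differences in each direction in every control ASO array, in log2 on the common quantile scale, one point per array (3 per line). The SKBR3 arrays lie beyond all 6 others for each gene, as the selection required, while the 2 triple-negative lines overlap for some genes, such as MIR130B and NDFIP1, and are far apart for MUCL1 (-4.16 and -1.44 against SKBR3).

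The same contrast was computed in the 9 anti-lncRNA ASO arrays, which played no part in choosing these genes but come from the same lines and scaling sets. There, 8440 features (29.1%) were called, 452 (1.56%) of them at least 2-fold, and among named genes 30.9% and 1.26%. All 30 leading genes were called with the same sign, and 29 of them, all but CLCA2, had no overlap between the SKBR3 arrays and the 6 others, which held there for 22.4% of all features and 23.9% of named genes. The difference was 4.28 for MIR130B, 2.51 for MIR185, 2.30 for FGG, -2.65 for MUCL1 and -2.31 for MIR199A1. It was larger than in the control arrays for some genes, MIR130B, MIR185 and FGG among them. For most of the 30 it was smaller in size, as for LINC02864 (2.04), SERF2 (3.01) and NPY1R (-1.76). TCEAL8 (0.99), NOSTRIN (0.98) and TCEAL5 (-0.95) were under 2-fold there. Of the features named by rule, leading genes included, 155 were called in the control arrays. Of these 113 were called the same way in the anti-lncRNA ASO arrays and 5 had the opposite sign there. Those not called there included ALCAM, ANKRD1, CD44, SNAI2 and SMAD4 (-0.13, against -0.53 in the control arrays). Of the 11660 calls of the control arrays, 6465 were called with the same sign, which is 55.4% of the control calls and 76.6% of the calls in the ASO arrays. A further 14 were called with the opposite sign. The sign agreed for 11081 of the control calls, against 80.1% of all features. Across all features the differences correlated with Pearson's r of 0.80 and Spearman's rho of 0.77, a description over features that are not independent replicates. A test of the change in the line contrast between ASO and control arrays called 0 features by limma. Of the 28966 tested, 2527 had an unadjusted p under 0.05, a larger share than 0.05. The lack of calls does not show that the contrast was unchanged.

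**Figure D2:**
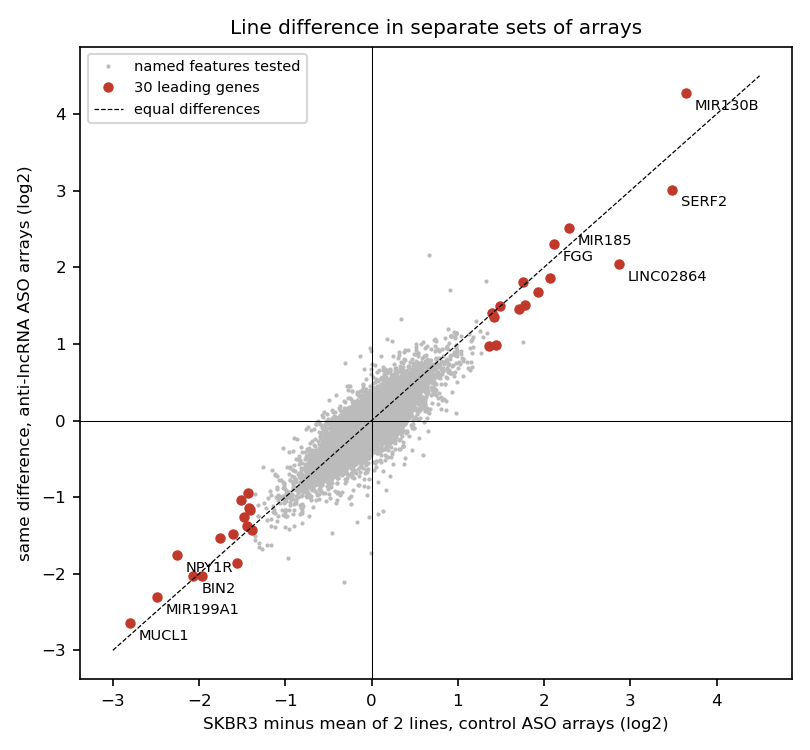
Difference between arrays labelled SKBR3 and the mean of both triple-negative lines in the control ASO arrays (horizontal) and in the anti-lncRNA ASO arrays (vertical), both in log2, one grey point per named feature and red points for the 30 leading genes. The leading genes lie near the line of equal differences in both corners, with MIR130B (3.65 and 4.28) and MUCL1 (-2.80 and -2.65) at the ends. Most of them had a smaller difference in the anti-lncRNA ASO arrays.

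More luminal epithelial genes were higher than lower in the arrays labelled SKBR3. Of 24 listed genes 19 were tested, and 10 were higher, 2 lower and 7 not called (63.2% called, against 43.8% of named genes, of which 19.7% were higher and 24.1% lower), with a median of 0.17 against -0.01 over all named genes. AGR2, a protein disulfide isomerase of secretory cells, was highest (0.94 ± 0.116, limma adjusted p = 0.000155). KRT18, a luminal keratin, read 11.2 ± 0.05 (SD) in the arrays labelled SKBR3, 11.03 ± 0.02 in MDA-MB-231 and 10.2 ± 0.07 in MDA-MB-468. Its difference of 0.56 was thus mostly from MDA-MB-468 (0.96) rather than MDA-MB-231 (0.17). The luminal transcription factor genes FOXA1 (0.39), SPDEF (0.36), XBP1 (0.31) and GATA3 (0.17) were higher too. Against that direction, EPCAM, an epithelial adhesion molecule, was lower (-0.36), as was the claudin CLDN7 (-0.32). ESRP1, an epithelial splicing factor absent from many mesenchymal cells, read 10.8 in both SKBR3 and MDA-MB-231, and its contrast of 0.02 did not pass.

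A second list, of luminal and HER2-enriched tumour genes that overlaps the first, had 11 higher and 1 lower of 19 tested (63.2% called), with a median of 0.26. The additional members were CLCA2 (1.40), the secreted protein PIP (0.66) and TMEM45B (0.42), while the adhesion molecule ALCAM was lower (-0.72). PIP (0.66 here) differed by -0.14 in the anti-lncRNA ASO arrays and did not pass there.

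Basal keratins were lower in the arrays labelled SKBR3. Of 15 listed basal genes 5 were tested, and 3 were lower, 1 higher and 1 not called (80% called, against 43.8% of named genes). KRT14 read 6.40 ± 0.14 (SD, n = 3) in the arrays labelled SKBR3, 8.34 ± 0.11 in MDA-MB-231 and 7.08 ± 0.08 in MDA-MB-468, a contrast of -1.31 ± 0.0785 (limma adjusted p = 2.17e-06). KRT5 differed by -0.96, and here MDA-MB-468 was highest, at -1.62 against -0.29 for MDA-MB-231. KRT16 differed by -0.79. EGFR, the epidermal growth factor receptor gene, was higher in the arrays labelled SKBR3 (0.42), including against MDA-MB-468 (0.27, limma adjusted p = 0.0101), the line known for its amplification. SFN did not pass (0.11).

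Mesenchymal genes differed in both directions. Of 20 listed, 8 were tested, with 3 lower, 2 higher and 3 not called (62.5% called, against 43.8% of named genes) and a median of -0.21. In the anti-lncRNA ASO arrays the list's median was -0.09. VIM, the intermediate filament gene abundant in mesenchymal cells, read 6.76 ± 0.11 (SD) in the arrays labelled SKBR3, 6.80 ± 0.13 in MDA-MB-231 and 7.42 ± 0.61 in MDA-MB-468, and its contrast of -0.35 did not pass (limma adjusted p = 0.194). The annexin ANXA1 (-0.62), the hyaluronan receptor CD44 (-0.50) and the matrix cross-linking enzyme LOX (-0.46) were lower. The receptor kinase gene AXL (0.67) and the transcription factor gene SNAI2 (0.37) were higher in the contrast. Both came from MDA-MB-468, since AXL differed by 1.62 from that line and by -0.28 from MDA-MB-231, and SNAI2 by 1.04 and -0.30. Of 8 fibroblast and endothelial markers 1 was tested, VWF (-0.31), whose call was lost when any 1 array was left out other than SKBR3 control replicate 2, MDA-MB-231 control replicate 1 or MDA-MB-468 control replicate 3.

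Genes amplified with ERBB2 were called in both directions. ERBB2 itself has no named feature here. Of 16 listed amplicon genes 12 were tested, and 2 were higher, 2 lower and 8 not called (33.3% called, against 43.8% of named genes), with a median of 0.04. ORMDL3 (0.50) and MED1 (0.43) were higher. MIEN1, which lies beside ERBB2, was lower by -0.61 ± 0.0559 (limma adjusted p = 2.54e-05), with means of 7.86 in SKBR3, 8.71 in MDA-MB-231 and 8.24 in MDA-MB-468, and GSDMB was lower too (-0.39, with a limma adjusted p of 0.0519 without SKBR3 control replicate 2). GRB7 (-0.10), STARD3 (-0.06), PGAP3 (-0.10), TCAP (0.03), PNMT (0.25), CDK12 (0.04), MED24 (0.14) and TOP2A (0.06) did not pass. ERBB3, the partner receptor of HER2, differed by -0.02 and did not pass. These values go against the label of an ERBB2-amplified line, and the cause was not tested.

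Genes known to be deleted in a line gave mixed values. RB1, lost in MDA-MB-468, read 4.96 ± 0.17 (SD, n = 3) in the arrays labelled SKBR3, 5.62 ± 0.09 in MDA-MB-231 and 3.70 ± 0.13 in MDA-MB-468. It was therefore lowest under the label that carries the deletion, and its contrast of 0.30 did not pass. RB1 passed the filter on low values through MDA-MB-231 only. Its means under the other 2 labels lay below the median of all features, 5.07. SMAD4, lost in the same line, was lowest in the arrays labelled SKBR3 (4.86 ± 0.1, against 5.52 and 5.27, contrast -0.53). SMAD4 passed that filter through the triple-negative lines only. CDKN2A, lost in MDA-MB-231, did not pass (-0.06), and its neighbour MTAP was lower (-0.26), by -0.61 against MDA-MB-468, while its 0.09 against MDA-MB-231 did not pass. Without SKBR3 control replicate 3 the MTAP contrast was -0.23, with a limma adjusted p of 0.0514. CDH1 has no named feature here.

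**Figure D3:**
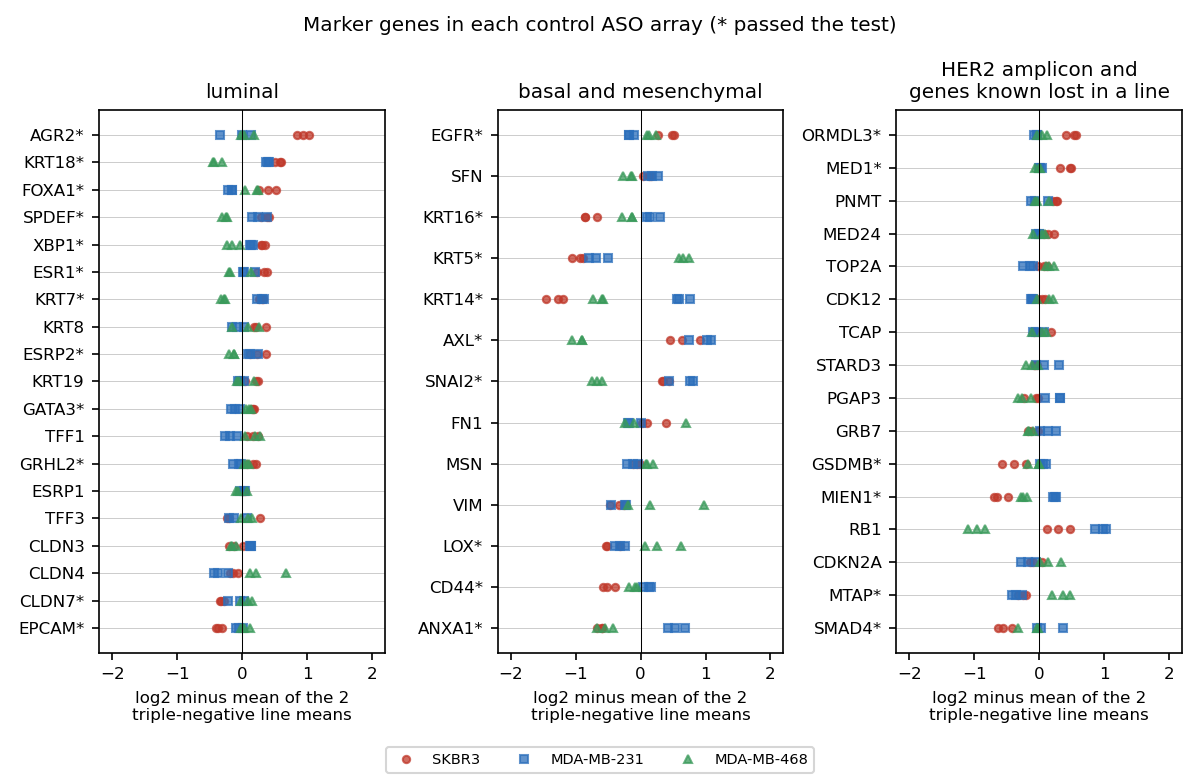
Marker genes in each control ASO array, in log2 relative to the mean of both triple-negative line means, one point per array, with genes that passed the test marked by an asterisk. The basal keratins KRT14, KRT5 and KRT16 lie lowest in the SKBR3 arrays, AXL and RB1 lowest in MDA-MB-468, and most amplicon genes lie near 0 in all 3 lines.

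Secreted proteases and their inhibitors were called more often than the background. Of 17 tested members 13 were called (76.5%, against 43.8% of named genes), 9 lower and 4 higher, with a median of -0.24. The median was -0.50 against MDA-MB-231 and 0.05 against MDA-MB-468. TIMP1, an inhibitor of metalloproteinases, was lower by -1.02 ± 0.0782 (limma adjusted p = 8.32e-06), as were the kallikrein KLK6 (-0.92), the cathepsin CTSV (-0.84) and TFPI, an inhibitor of tissue factor (-0.77, and 0.03 against MDA-MB-231). CPA4, a carboxypeptidase (0.98), and the membrane metalloproteinase MMP15 (0.65) were higher. In the anti-lncRNA ASO arrays the list's median was 0.08, and CPA4 differed by 0.09 and did not pass.

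Mucins and secreted epithelial proteins differed in both directions. Of 26 listed genes 11 were tested, and 4 were higher and 2 lower, 54.5% called, near the 43.8% of named genes. The calprotectin subunit genes S100A8 (1.17) and S100A9 (0.87) were higher, while SLPI, a protease inhibitor of mucosal surfaces (-0.88), and the iron-scavenging lipocalin LCN2 (-0.79) were lower. S100A8 read 10.2 ± 0.04 (SD) in SKBR3, 9.77 ± 0.07 in MDA-MB-231 and 8.39 ± 0.19 in MDA-MB-468, so that most of its contrast came from MDA-MB-468.

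Of 17 listed heat shock genes 8 were tested, and all 8 were called, 3 higher and 5 lower, against 43.8% of named genes. HSPA4 (-0.61) and the co-chaperone BAG3 (-0.48) were lowest, whereas HSPA1A (0.18), HSPA1B (0.17) and the mitochondrial chaperonin HSPD1 (0.18) were slightly higher. HSPA1A and HSPA1B are near-identical copies whose signals may be shared. The HSPA1A call was lost with percentile ranks (limma adjusted p = 0.0552) and with all 18 arrays in the fit (0.0836). HSPA4 differed by the same -0.61 from each triple-negative line. Of 16 listed antigen presentation genes 2 were tested, and they were called in opposite directions. B2M, the invariant chain of class I antigen presentation, was lower by -0.74 ± 0.035 (limma adjusted p = 6.35e-07), with -0.64 and -0.84 against MDA-MB-231 and MDA-MB-468. TAPBP, the other tested member, was higher by 0.42 (limma adjusted p = 0.000638).

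Other single members differed clearly while their lists did not move one way. The Wnt antagonist SFRP1 (-1.03), the Wnt receptor FZD7 (-0.75), the stem cell marker PROM1 (-0.80), the cyclin CCNG1 (-0.82), the mitophagy gene BNIP3 (-0.87), the TGF-beta pseudoreceptor BAMBI (-0.74), the replication gene GINS2 (-0.75) and the serine synthesis enzyme PHGDH (-0.67) were lower. The glycolytic enzyme PGAM1 (0.85), the mevalonate kinase MVK (0.76), the YAP target ANKRD1 (0.83), the ribosomal protein RPL27 (0.81) and the mitotic kinase AURKB (0.65) were higher. LDHB, a lactate dehydrogenase subunit, was higher (0.97) through MDA-MB-468 alone, with 1.94 against that line and -0.01 against MDA-MB-231. In the HOX list 4 of 19 tested genes were called, 21.1% against 43.8% of named genes. Each was higher, near the 19.7% of named genes that were, with HOXB6 (0.53) the largest. The call of HOXC9 (0.33) was lost when any 1 array was left out other than MDA-MB-231 control replicate 1 or MDA-MB-468 control replicate 2. HOXC13 was higher by 0.30 here and differed by -0.17 in the anti-lncRNA ASO arrays, where it did not pass (limma adjusted p = 0.181).

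Of 38 gene lists, 29 had at least 5 tested members, and 25 of these had a median difference within 0.2 log2 of 0. Examples are mitosis (22 tested, 5 higher and 6 lower, median -0.01), DNA replication (20 tested, 3 and 6, -0.04), cholesterol synthesis (16 tested, 5 and 5, 0.02) and cytosolic ribosomal proteins (23 tested, 7 and 5, 0.03). The 4 lists beyond that range were luminal and HER2-enriched, basal epithelium, mesenchymal cells, and proteases and inhibitors.

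**Figure D4:**
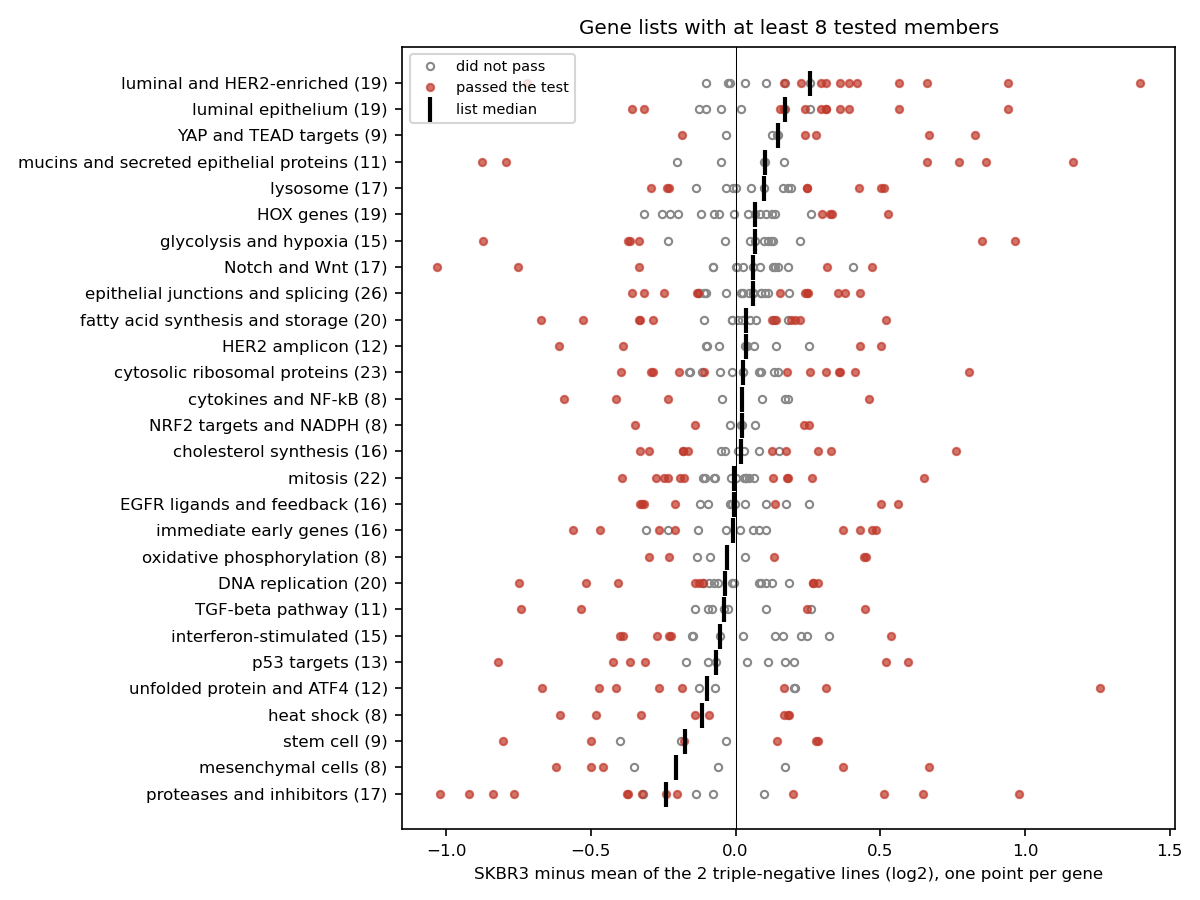
Difference between arrays labelled SKBR3 and the mean of both triple-negative lines, in log2, for each tested gene of the 28 lists with at least 8 tested members; filled points passed the test, open points did not, and black bars are list medians. Medians run from -0.24 (proteases and inhibitors) to 0.26 (luminal and HER2-enriched), with members on both sides of 0 in every list.

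Differences were also described along the chromosomes, since copy number differs between cancer lines. Named genes were put in RefSeq gene order in 429 windows of 25 tested genes. Window medians ran from -0.33 to 0.22, with the middle part of them between -0.07 and 0.04 (quartiles). The lowest lay on chromosome 13 from TRIM13 to KLF12 (-0.33, with 14 genes lower and 3 higher), and another on that chromosome ran from SERTM1 to ENOX1 (-0.25). On chromosome 13 as a whole 80 of 193 genes were lower and 24 higher (median -0.12), and on chromosome 18 it was 62 and 17 of 148 (-0.12), against 24.1% and 19.7% of all named genes. The highest windows ran from PIH1D1 to SNAR-D on chromosome 19 (0.22) and from CBX5 to CS on chromosome 12 (0.20). The same sign was found in the anti-lncRNA ASO arrays for 346 of the 429 windows, a share near the 80.1% of single features whose sign agreed. Copy number was not measured, and its part in these medians was not tested.

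**Figure D5:**
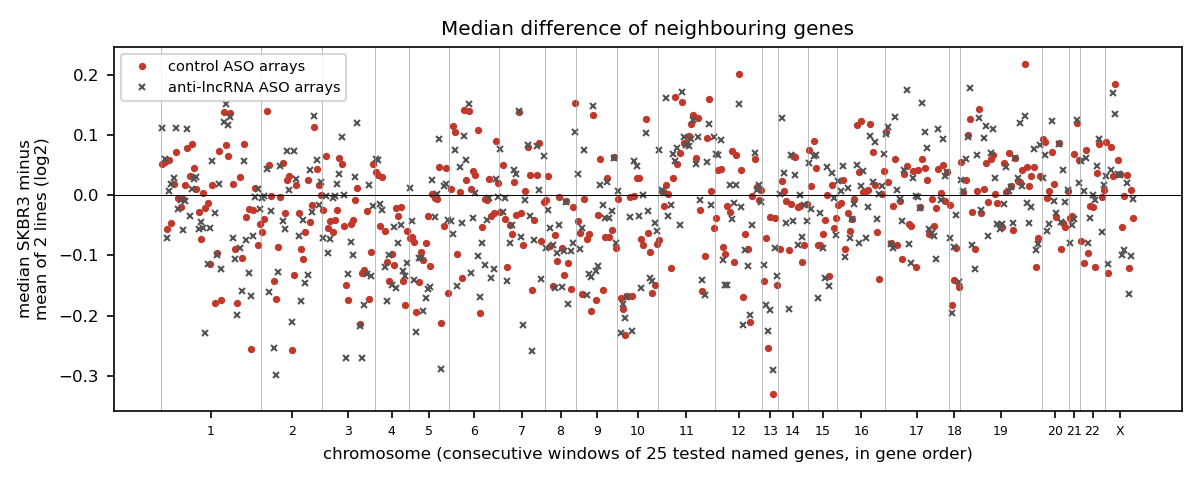
Median difference between arrays labelled SKBR3 and the mean of both triple-negative lines, in log2, for 429 consecutive windows of 25 tested named genes in gene order; red points are the control ASO arrays and crosses the anti-lncRNA ASO arrays. The lowest window is on chromosome 13 (-0.33) and the highest on chromosome 19 (0.22), and none departs from 0 by as much as the leading single genes.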

How the data were processed

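The deposited values are log2 expression per transcript cluster, read as such from their range and spread (0.41 to 13.8), since no label or header names the scale. The authors processed the scans in Transcriptome Analysis Console, per the series' design text and the submitters' processing notes. The program's version, summarization and genome build are not given in the sources used here. Array medians differ by line, so the 9 control arrays were quantile-normalized together with limma. Precision is limited by the number of arrays.

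GEO's platform annotation named 16098 of 53617 features, with 1 symbol each, and 37519 are unnamed here. Control probes are not marked in the table and were not removed. A feature was tested if 1 or more of the 3 lines had a mean above that line's overall median (28966 features, 11785 with a symbol). For lists, 1 feature per gene was used, the one with the highest mean.

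One mean per line was fitted in R 4.3.3 with limma 3.58.1, with an intensity trend, 6 residual and 4.24 prior degrees of freedom, two-sided tests and Benjamini-Hochberg adjustment at 0.05 over all tested features. Genes were named by rule: the 15 largest differences per direction among features with a symbol that passed and whose 3 SKBR3 arrays lay beyond the 6 others (the smallest p within a gene), up to 4 members with the smallest p per list, and all line markers. List members named beyond these, neighbours and windows were chosen after their values were seen. The arrays compared, the lists and the rules were chosen with earlier results of these data known. The procedure was tested on simulated data. Replicate numbers were not used to pair the arrays in the main fit. Deviations of same-numbered arrays correlated at -0.10 to 0.12, with 2 of 9 pairs over 0.1. Both of these were MDA-MB-231 with MDA-MB-468 (0.12 and 0.11). Other-numbered arrays correlated at -0.11 to 0.07, with 0 of 18 pairs over 0.1. Whether the numbers pair arrays of the triple-negative lines is not settled by so few pairs. Alternatives covered normalization, filter, variance model, block and left-out arrays.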

Additional observations from a re-analysis of the deposited data

Results flagged for a closer look

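Of 170 single features of genes named by rule, 3 were called above 1 triple-negative line and below the other, with the triple-negative lines themselves called apart. Over all tested features 581 (2.01%) were called above 1 line and below the other, a similar share. RB1 was lower in the arrays labelled SKBR3 than in MDA-MB-231 by 0.67 log2 (-0.67) and higher than in MDA-MB-468 by 1.26, and the triple-negative lines differed by 1.93 ± 0.136 (SE, 3 arrays per line, limma adjusted p = 1.55e-05). CD68, a lysosomal protein gene used as a macrophage marker, gave -0.68 and 0.79, and the triple-negative lines differed by 1.46 (limma adjusted p = 7.34e-06). SNAI2 gave -0.30 and 1.04, and the triple-negative lines differed by 1.34 (limma adjusted p = 2.75e-05). For these genes the mean of both triple-negative lines describes neither line. RB1 passed the filter on low values through MDA-MB-231 only.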

How the results depend on the processing

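Counts of calls for the SKBR3 contrast, for features called against each line, for MDA-MB-231 against MDA-MB-468 and for the anti-lncRNA ASO arrays stayed within 1.5 times of those given under each alternative but 2. Requiring at least 2-fold, a threshold chosen after seeing the data, left 435 of the 11660 calls, and testing all features without a filter gave 12726 calls in the ASO arrays. Leaving out 1 array at a time gave 9551 (without SKBR3 control replicate 3) to 11131 calls for the contrast, 4671 to 5268 against each line, 6864 to 9261 between the triple-negative lines and 5775 to 8112 in the ASO arrays. With the replicate number as a block the counts were 11465, 5774, 8974 and 8160. Median centring of each array moved the median difference of all tested features to 0.05 and the share of calls that were higher from 48.7% to 58.6%. Under it the uncalled differences of CDKN2A (0.0358), ERBB3 (0.0271) and STARD3 (0.0126) changed sign. Leaving out 1 array turned those of GSTP1 (-0.0623 without SKBR3 control replicate 1, up to 0.157) and TCAP (-0.0445 without the same array, up to 0.0932). Among 170 single features of named genes, calls were lost for 9 with all 18 arrays in the fit, 4 with percentile ranks, 2 with median centring and 1 each without the filter, without the intensity trend and with the block. Leaving out 1 array at a time lost 35 calls over all arrays left out, 0 of them among the leading genes. The cause was not tested. Percentile ranks, in another unit, were not run for list medians. Small differences near the array's lower range are the least certain.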
